A study of Mus musculus with 120 samples.

Results

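Gene expression was compared between 12 control libraries labelled time 1 and 12 control libraries labelled time 0 (T1 and T0 below), which are 24 of the 120 libraries of the series, and the comparison was read across every gene that could be tested. The cells were bone-marrow-derived macrophages (BMDMs), that is, macrophages grown in culture from marrow precursors, from wild-type C57BL/6 mice labelled as 12 weeks old and male. All of the libraries, T0 included, came from cultures transduced with a pool of transcription factor reporter viruses and replated on day 9 at 125000 cells per well of a 96-well plate. The control libraries carry a halofuginone dose of 0 nM, so no small molecule enters the comparison. The series design states that cells were stimulated with bacterial lipopolysaccharide (LPS), and T1 is read here as a time after LPS on that basis, since no label of a single library states LPS and the time label has no unit. The 12 control libraries labelled time 4 (T4) entered the same fit and give a level for orientation. No source says that the 12 libraries of a time came from separate mice or cultures, so the p-values measure the spread between these libraries, which may be technical.

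LPS is bound by Cd14 and recognised by the receptor complex of Tlr4, whose adaptors start a kinase cascade. That cascade frees the transcription factor NF-kB from its inhibitor and switches on AP-1 factors, and a later branch of the pathway induces interferon beta and through it the interferon-stimulated genes. Macrophages are known for a fast first wave of cytokine and chemokine transcripts and for inducing, at the same time, the inhibitors, phosphatases and RNA decay factors that limit that wave.

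The 24 libraries held between 35545 and 100337 counts, and total counts did not differ detectably between times (mean 58011 ± 19390 at T1 and 56095 ± 12350 at T0, SD, n = 12 each, permutation test adjusted p = 0.773). The ribosomal precursor Rn45s took 43.6% ± 4.51 of counts at T1 and 47.7% ± 3.21 at T0, which did not pass the test after adjustment over the 5 library measures (p = 0.0199, adjusted p = 0.0993). The defining macrophage genes Csf1r, Tyrobp, Ctss and Lgals3 had between 721 and 2230 counts per time at T0 and T1, while Lyz2, Lyz1 and Mertk had at most 5 and Marco had 0. None of the 12 erythroid and mast cell markers had a count, and 6 of 7 B cell, 10 of 12 T and NK cell and 8 of 10 fibroblast markers were at 0 at T0. Of 10 dendritic cell markers 5 were at 0 at T0 and 6 at T1. Neutrophil markers were present, with 3 of 13 at 0 at T0 and 4 at T1 and a summed level of 460 to 741 CPM (counts scaled to a common library total) per library at T0 and 475 to 784 at T1. Among them S100a8 had 96 counts at T0 and 81 at T1, and S100a9 had 115 and 139 (0.16, adjusted p = 0.688); their part in the results was not tested. The sex label was not borne out by the sex-linked genes. Xist, the RNA of the inactive X chromosome, had 395 counts at T0 and 391 at T1 and was present in all 24 libraries, whereas the Y-linked Ddx3y, Eif2s3y, Kdm5d, Uty, Sry and Zfy1 had 0 counts in all of them. Xist differed between the times by -0.14 (log2, adjusted p = 0.588), and sex enters no comparison here.

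Of 23481 gene symbols, 708 passed the filter on low counts and were tested with edgeR's quasi-likelihood test. At a Benjamini-Hochberg adjusted p under 0.05, 132 genes (18.6% of those tested) were higher at T1 and 37 (5.23%) were lower. Among these genes that rose, 108 changed by at least 1 on the log2 scale, 70 by at least 2 and 43 by at least 3, with a median of 2.11. Among those that fell, 5 changed by at least 1, with a median size of 0.606. A looser filter, described below with the immediate early factors, added 24 lower genes, of which 23 changed by at least 1. These added genes have lower counts, so a small fall among them could hardly pass the threshold. The sizes of the falls under the filters can therefore not be compared. The median over all 708 genes was -0.06. In 66 genes (9.32%) every T1 library lay above every T0 library, and in 1 gene (0.141%), Rgs2, every T1 library lay below.

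Throughout, a level is in CPM, which scales each library's counts of tested genes to a common total, and is given as the lowest, median and highest of 12 libraries. A fold change is a log2 value, T1 minus T0, and its SE is taken as the size of that change over the root of the test's F. In all, 14 of the genes that rose had 3 or fewer counts over the 12 T0 libraries. For these the fitted fold change is no measure of size, and a bound or a ratio of summed counts is given with its 95% exact interval, which covers counting error only. With these 14 genes set to their bounds, 40 genes rose by at least 3. A gene also passes the filter through the group in which it is high, so counts over the tested members of a list lean towards higher, and they describe the members that could be tested rather than the list.

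**Figure D1:**
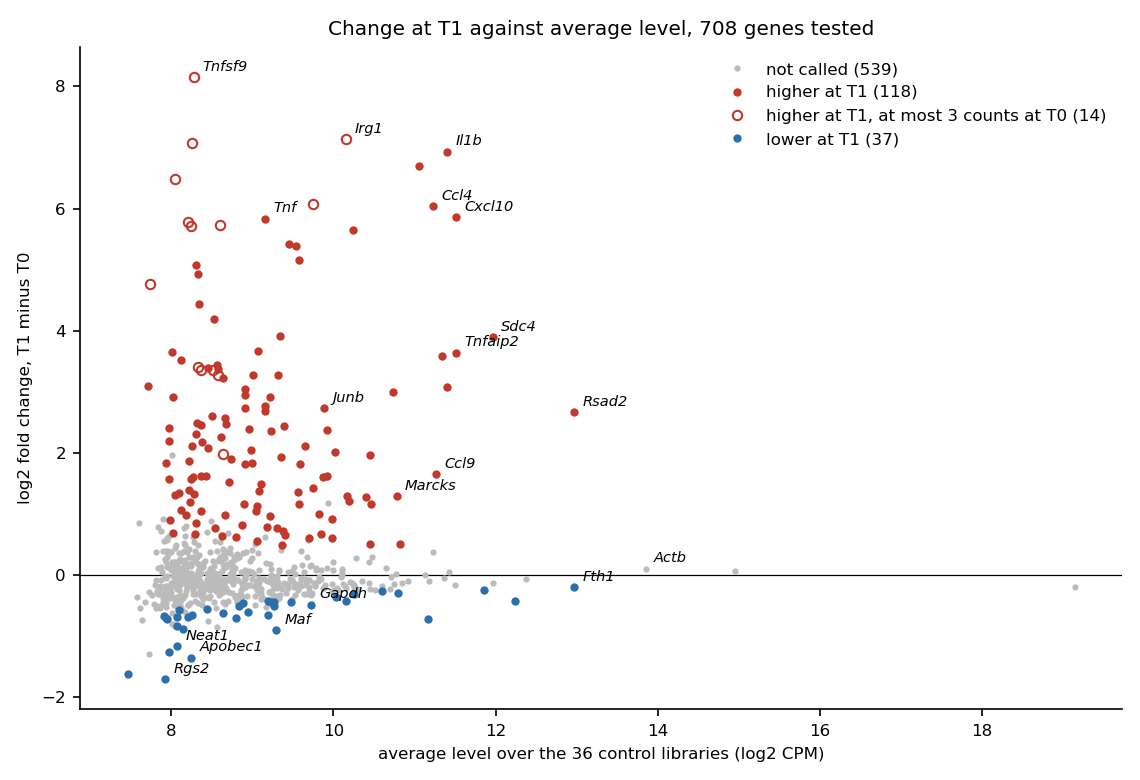
Change at T1 against average level for the 708 tested genes, with the log2 fold change (T1 minus T0) on the vertical axis and the average log2 CPM over 36 control libraries on the horizontal axis. The 132 genes that were higher at T1 reach up to 8.15 on the vertical axis, and the 37 that were lower reach down to -1.70. Open circles mark 14 genes with at most 3 counts at T0. The value of 8.15 belongs to Tnfsf9, an open circle with 0 counts at T0, for which the bound is 6.96.

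Genes of LPS sensing were mostly too low for the main filter. Only 3 of 27 passed it, and 2 of them, Cd14 and Tlr2, rose (66.7%, against 18.6% of all tested genes). Cd14, the LPS-binding co-receptor, had 20.9, 282 and 412 CPM at T0 (lowest, median, highest) and 584, 917 and 1238 at T1, a change of 1.83 (SE 0.18, adjusted p = 7.76e-13). The groups did not overlap. Tlr2, the receptor for bacterial lipoproteins, rose by 2.20 (SE 0.29, adjusted p = 4.96e-09), from a median of 32.1 to 249 CPM, and the highest T0 library reached into the T1 range. Tab2, an adaptor of the kinase Tak1, was at 0.28 (adjusted p = 0.485). Tlr4 itself was too low for the main filter. Under the looser filter it had 31 counts at T0 and 20 at T1 (-0.63, adjusted p = 0.736 by edgeR). There, 2 of 18 LPS-sensing genes, Tlr2 and Cd14, rose and none fell, against 4.78% and 0.709% of all genes tested.

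All 7 tested members of the NF-kB subunit and feedback list, out of 17 listed, were higher at T1, against 18.6% of all genes tested. Nfkbia encodes the inhibitor that holds NF-kB in the cytoplasm and is itself an NF-kB target. It stood at 230, 309 and 527 CPM at T0 and at 3186, 4018 and 4999 at T1, a rise of 3.59 (SE 0.12, adjusted p = 8.04e-34). The T0 and T1 libraries did not overlap. Tnfaip3 (A20), a ubiquitin-editing enzyme that shuts off the pathway, went from 0, 26.3 and 105 CPM to 916, 1363 and 1730 (5.16, SE 0.25, adjusted p = 2.65e-25). Nfkbiz, a nuclear cofactor needed for a subset of late NF-kB targets, went from 0, 27.0 and 116 to 1151, 1651 and 2041 (5.38, SE 0.22, adjusted p = 3.39e-29). The groups did not overlap for either gene. The remaining members that rose were the inhibitor Nfkbie (3.09), the A20-binding Tnip3 (2.38) and Tnip1 (1.6), and the subunit gene Nfkb1 (1.05, SE 0.27, adjusted p = 0.00131). Nfkb1 had the smallest fold change of the 7.

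The upstream sequence of Nfkbia is shown because it carries a kappa-B match within the last bases before the transcription start. The 250 bases before the RefSeq start lie at chr12:55492648-55492897 on the minus strand of GRCm38, are printed 5′ to 3′ on the strand of the gene, and have the match in capitals, at bases 29 to 20 before the start.
Nfkbia: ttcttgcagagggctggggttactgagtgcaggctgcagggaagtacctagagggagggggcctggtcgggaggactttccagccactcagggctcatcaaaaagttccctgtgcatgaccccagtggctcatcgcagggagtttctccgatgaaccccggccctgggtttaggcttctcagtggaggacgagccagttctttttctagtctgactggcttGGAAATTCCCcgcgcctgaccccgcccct

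Of 27 immediate early transcription factors, Junb and Klf6 were tested and both rose, against 18.6% of all tested genes. Junb, an AP-1 subunit, went from 106, 213 and 413 CPM to 1462, 1672 and 2128 (2.73, SE 0.15, adjusted p = 4.52e-23). Klf6, a zinc finger factor, rose by 2.01 (SE 0.15, adjusted p = 2.12e-17), from a median of 353 to 1381 CPM. Neither gene's groups overlapped. The list is better covered when genes with at least 24 counts over the 24 libraries are tested instead. Under that looser filter 236 of 4935 genes (4.78%) were higher and 35 (0.709%) were lower, and 11 of 21 immediate early factors rose. Egr1 had 7 counts at T0, 141 at T1 and 5 at T4, and rose by 4.06 (SE 0.46, adjusted p = 9.05e-14). Nr4a1 had 5, 71 and 0 counts, and Myc had 7, 74 and 5. Egr2 had 1 count at T0, 70 at T1 and 4 at T4, a ratio of 65.0 between T1 and T0 (11.3 to 2600). In these 4 factors the T4 counts were within 5 counts of those at T0. Egr1, Nr4a1 and Myc lie outside the naming rule and were chosen after their values were seen. The AP-1 genes Fos, Jun, Jund and Fosl2 were chosen in the same way. Under the looser filter Fosl2 rose, from 4 to 30 counts (2.53, adjusted p = 0.00673 by edgeR). Fos, Jun and Jund did not pass the test there. Fos had 48 counts at T0 and 51 at T1 (0.08, adjusted p = 0.977). Jun had 90 and 155 (0.75, adjusted p = 0.0989), and Jund had 21 and 29 (0.44, adjusted p = 0.835).

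All 7 tested members (of 26 listed) of the list of signal and RNA decay feedback rose, against 18.6% of all tested genes. Socs3, an inhibitor of cytokine receptor signalling, had 3 counts at T0 and 243 at T1, a ratio of 75.2 (25.4 to 367). Pim1, a survival kinase, rose from 0, 50.4 and 142 CPM to 690, 892 and 1164 (3.92, SE 0.20, adjusted p = 2.23e-24). Ppp1r15a, which recruits a phosphatase to the translation factor eIF2, went from 0, 67.7 and 169 CPM to 345, 940 and 1260, and was at 0, 64.1 and 221 at T4. T1 and T0 did not overlap for Ppp1r15a (3.44, SE 0.31, adjusted p = 2.98e-14), and the T4 range lay on that of T0. Zfp36 (tristetraprolin), which binds AU-rich elements and speeds the decay of cytokine mRNAs, went from 21.1, 107 and 203 CPM to 272, 663 and 785 (2.47, SE 0.22, adjusted p = 1.14e-14). The MAP kinase phosphatase Dusp1 rose by 3.52, the stress gene Gadd45b by 3.38, and the phosphatase Dusp2 had 2 counts at T0 and 94 at T1, a ratio of 43.6 (11.7 to 366). Under the looser filter 13 of 18 members rose, against 4.78% of all genes tested there, among them Trib1, Phlda1, Zc3h12a, Dusp5, Rgs1 and Zfp36l1.

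All 5 tested members of the cytokine list (of 26) rose, against 18.6% of all tested genes. The summed level of the list was 58.0 to 701 CPM per library at T0 and 5547 to 7343 at T1. Il1b, the precursor of interleukin-1 beta, had 0, 23.1 and 105 CPM at T0, 2854, 3680 and 4294 at T1 and 3559, 4203 and 5094 at T4 (T1 against T0 6.93, SE 0.20, adjusted p = 5.81e-36). Tnf, tumour necrosis factor, had 0, 0 and 84.3 CPM at T0, 840, 1128 and 1345 at T1 and 318, 456 and 655 at T4 (5.83, SE 0.28, adjusted p = 1.02e-25). Every T1 library of both genes was above every T0 library, and the Tnf level at T4 lay between those of T0 and T1. Tnfsf9, the ligand of the T cell receptor 4-1BB, had 0 counts in all 12 T0 libraries, 401 at T1 and 52 at T4, which makes it at least 124-fold higher at T1 than a floor of 3 counts over the T0 group. Il1a rose by 4.2 (SE 0.45, adjusted p = 8.31e-12) and Il1rn, the receptor antagonist, by 3.04 (SE 0.44, adjusted p = 4.20e-08), and in both the T0 and T1 ranges overlapped.

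Other cytokines were near the limit of detection and are given as counts over 12 libraries. Il12b, a subunit of interleukin-12, had 1 count at T0, 48 at T1 and 206 at T4, a ratio of 44.6 between T1 and T0 (7.62 to 1800). Il6 had 0, 16 and 287 counts, at least 4.95-fold higher at T1, and Il10, an anti-inflammatory cytokine, had 1, 21 and 33. Ifnb1 (interferon beta) had 0, 21 and 2 counts, at least 6.50-fold higher at T1. Nos2, the inducible nitric oxide synthase, had 0 counts at T0 and at T1 and 84 at T4. Ifnb1 was thus detected mainly at T1, and Il6, Il12b and Nos2 had most of their counts at T4.

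Of 11 tested chemokines (of 23 listed), 10 were higher at T1, against 18.6% of all tested genes. Of the 11, 3 had at most 3 counts at T0 and so passed the filter through the groups in which they are high. Under the looser filter 10 of 14 were higher, against 4.78% of all genes tested there. The summed level of the list was 1126 to 1771 CPM at T0 and 12760 to 16330 at T1. Cxcl2, a neutrophil attractant, had 0, 34.8 and 148 CPM at T0, 3751, 5120 and 6326 at T1 and 939, 1185 and 2117 at T4 (T1 against T0 6.69, SE 0.22, adjusted p = 9.79e-34). Ccl4 (MIP-1 beta), which attracts monocytes and T cells, had 0, 31.3 and 101 CPM at T0 and 2233, 2639 and 3335 at T1 (6.04, SE 0.17, adjusted p = 5.81e-36). Ccl3 rose by 5.65 (SE 0.27, adjusted p = 3.93e-26). Cxcl10, an interferon-inducible T cell attractant, had 0, 0 and 87.1 CPM at T0, 999, 1200 and 1426 at T1 and 5864, 7312 and 8730 at T4 (5.86, SE 0.24, adjusted p = 3.11e-29). The T0 and T1 libraries were separate for all 4 of these genes. Among them Cxcl2 was lower at T4 than at T1, while Ccl4 and Cxcl10 were higher.

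Members of the list outside the naming rule were chosen after their values were seen. Cxcl1 had 2 counts at T0 and 316 at T1, a ratio of 147 (40.3 to 1220), and Cxcl3 had 1 and 322, a ratio of 299 (53.3 to 11800). Both had fewer counts at T4, 53 and 119. The monocyte attractant Ccl7 had 0 counts at T0 and 71 at T1, at least 22-fold higher. Ccl2 rose by 5.08, Ccl5 by 3.00 and Ccl9 by 1.65, and Ccl9 differed from the rest in its high level at T0 (495, 686 and 1096 CPM). The remaining tested member, Cxcl16 (0.42, adjusted p = 0.0954), did not pass the test.

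Cxcl3, Cxcl1 and Cxcl2 are neighbours within 120 kb of chromosome 5, and their upstream sequences are shown because the 3 carry the same 11 bases, GGGAATTTCCC, a kappa-B match on either strand. The windows are chr5:90785851-90786100 for Cxcl3, chr5:90890995-90891244 for Cxcl1 and chr5:90903649-90903898 for Cxcl2 (plus strand), and that of Cxcl10 is chr5:92348890-92349139 (minus strand, printed on the strand of the gene). Capitals mark matches to kappa-B, and in Cxcl10 also to the interferon response core (the letters GAAA, any 2 bases, and GAAA again, on either strand) and to TGANTCA, an AP-1 site; in Cxcl3 they also mark TATAAA. The shared run begins 71 bases before the start in Cxcl1, 97 in Cxcl2 and 73 in Cxcl3. Cxcl10 holds kappa-B matches that begin 159 and 104 bases before the start.
Cxcl1: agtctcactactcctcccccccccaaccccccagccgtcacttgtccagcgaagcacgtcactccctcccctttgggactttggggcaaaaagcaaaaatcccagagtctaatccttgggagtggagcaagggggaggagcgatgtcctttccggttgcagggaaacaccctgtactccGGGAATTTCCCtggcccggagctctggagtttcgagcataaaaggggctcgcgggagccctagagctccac
Cxcl2: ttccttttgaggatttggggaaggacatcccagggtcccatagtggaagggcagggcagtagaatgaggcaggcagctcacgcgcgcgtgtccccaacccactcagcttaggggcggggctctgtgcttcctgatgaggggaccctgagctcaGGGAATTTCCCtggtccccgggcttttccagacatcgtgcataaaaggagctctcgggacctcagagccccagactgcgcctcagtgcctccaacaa
Cxcl3: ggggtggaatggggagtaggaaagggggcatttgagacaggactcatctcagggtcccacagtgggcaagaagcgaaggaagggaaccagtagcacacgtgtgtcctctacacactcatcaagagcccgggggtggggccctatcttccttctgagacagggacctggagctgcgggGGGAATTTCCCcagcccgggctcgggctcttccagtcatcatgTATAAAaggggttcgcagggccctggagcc
Cxcl10: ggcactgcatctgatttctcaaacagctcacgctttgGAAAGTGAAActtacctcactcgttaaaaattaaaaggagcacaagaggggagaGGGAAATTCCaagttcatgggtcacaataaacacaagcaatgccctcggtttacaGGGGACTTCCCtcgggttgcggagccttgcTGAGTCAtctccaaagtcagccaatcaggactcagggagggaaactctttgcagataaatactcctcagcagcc

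**Figure D2:**
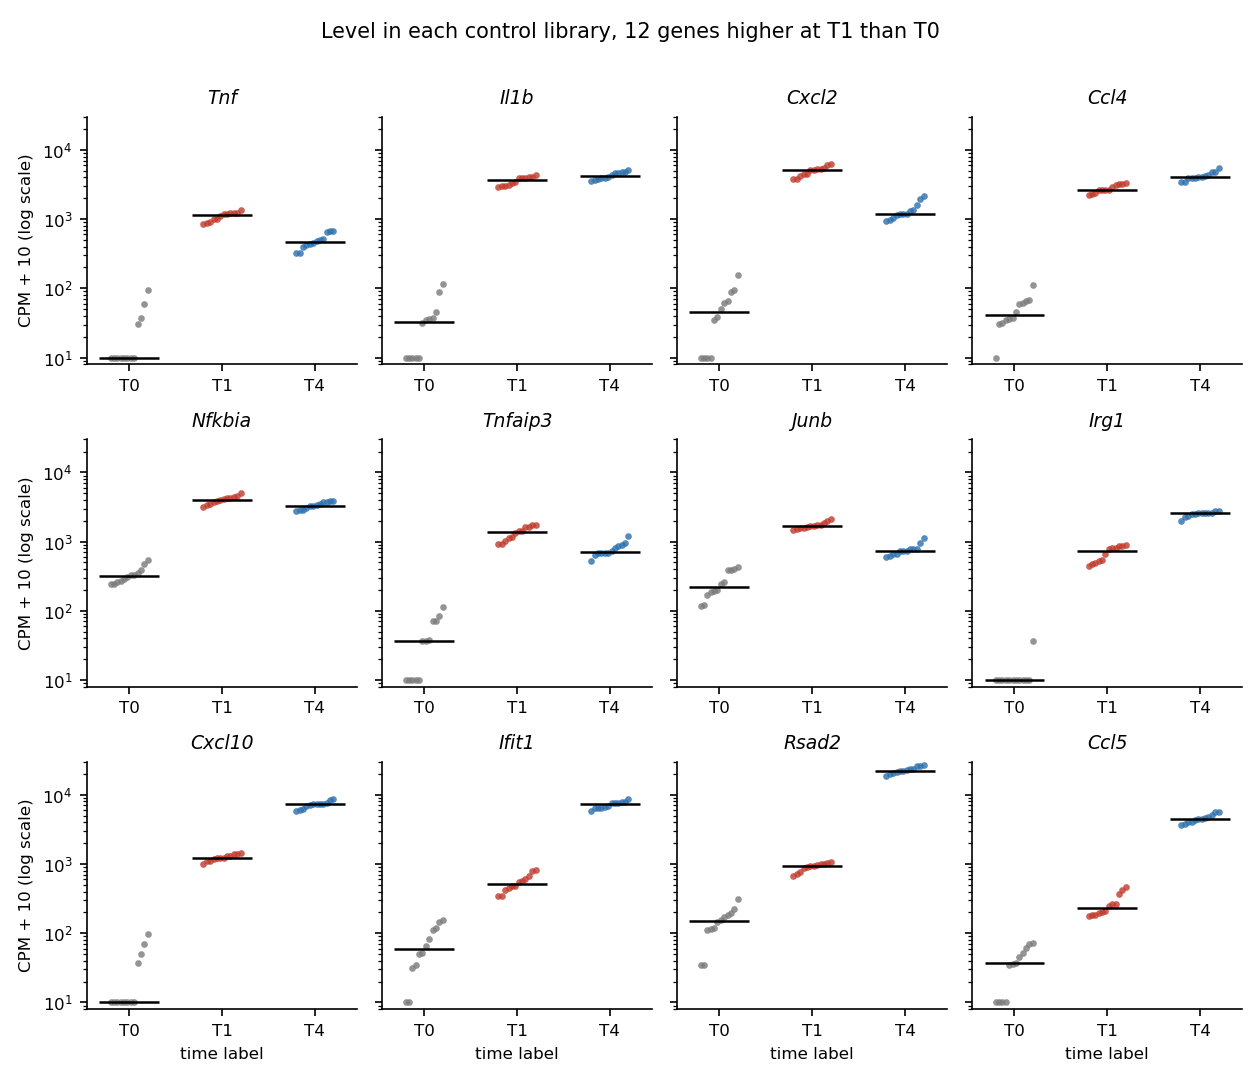
Level of 12 genes in each control library, as CPM + 10 on a log scale, for T0, T1 and T4 with 12 libraries each; points are libraries and bars are medians. In all 12 genes every T1 library lies above every T0 library, the T4 medians of Tnf, Cxcl2, Nfkbia, Tnfaip3 and Junb lie below those of T1, and those of the other 7 lie above.

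Induced enzymes and surface proteins followed: 17 of 18 tested members (of 39 listed) were higher, against 18.6% of all tested genes. Irg1 (now Acod1), which makes itaconate from a citrate cycle intermediate, had 1 count at T0, 340 at T1 and 1725 at T4, a ratio of 316 between T1 and T0 (56.3 to 12500). Ptgs2 (cyclooxygenase-2), the inducible enzyme of prostaglandin synthesis, had 0, 0 and 48.6 CPM at T0 and 219, 446 and 629 at T1 (5.42, SE 0.34, adjusted p = 1.02e-20). The collagenase gene Mmp13 had 0 counts at T0, 92 at T1 and 1475 at T4, at least 28.5-fold higher at T1. Tnfaip2 went from 162, 291 and 411 CPM to 2346, 3248 and 4897 (3.64, SE 0.14, adjusted p = 1.38e-29). Cd83, a marker of activated antigen-presenting cells, had 27.4, 150 and 274 CPM at T0, 792, 1034 and 1157 at T1 and 255, 429 and 522 at T4 (2.77, SE 0.18, adjusted p = 1.52e-19). The T0 and T1 libraries of these 5 genes did not overlap. Sdc4, a heparan sulfate proteoglycan of the cell surface that is on none of the lists, rose from 48.6, 256 and 451 CPM to 2578, 3708 and 6170 (3.89, SE 0.17, adjusted p = 4.08e-28). The adhesion receptor Icam1 rose by 2.74, the co-stimulatory receptor Cd40 by 3.23, the C-type lectin Clec4e by 2.92 and the mitochondrial superoxide dismutase Sod2 by 1.81, and the inflammasome sensor Nlrp3, on no list, by 3.40.

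Of 31 tested interferon-stimulated genes (of 45 listed), 12 rose (38.7%, against 18.6% of all tested genes) and none fell (against 5.23%) by edgeR, where 13 rose and 0 fell at an unadjusted p under 0.05, and by DESeq2 13 rose and 0 fell. The others ranged from -0.81 in Ifi47 (adjusted p = 0.322) to 1.19 in Cmpk2 (adjusted p = 0.151). The summed level of the list was 1580 to 3050 CPM at T0, 4497 to 5960 at T1 and 60210 to 69130 at T4, so it was highest at T4, and several members could be tested through their T4 level alone. Ifit1, which binds foreign RNA, had 0, 48.3 and 145 CPM at T0, 333, 505 and 806 at T1 and 5903, 7230 and 8559 at T4 (T1 against T0 3.07, SE 0.23, adjusted p = 3.77e-17). Rsad2 (viperin), an antiviral enzyme, had 24.3, 139 and 302 CPM at T0, 652, 927 and 1046 at T1 and 18530, 22140 and 26610 at T4 (2.67, SE 0.17, adjusted p = 2.66e-20). Oasl1 rose by 3.67 (SE 0.44, adjusted p = 2.48e-10) and the RNA sensor Ifih1 by 2.95 (SE 0.32, adjusted p = 1.61e-11). T0 and T1 were separate in these 4 genes. The rise was uneven within families: Ifit1 rose, while Ifit2 was at 0.22 (adjusted p = 0.699) and Ifit3 at 0.51 (adjusted p = 0.473). Oasl1 rose, while Oasl2 was at -0.16 (adjusted p = 0.807) and Oas1a at 0.01 (adjusted p = 0.972). Differences between family members were not tested. Gbp2 (1.98, adjusted p = 0.0427) rests on 3 counts at T0 and 17 at T1, a ratio of 5.26 (1.52 to 28.0), and it lost its call in at least 1 alternative.

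Upstream sequences of Ifit1 (chr19:34640639-34640888, plus strand) and Isg15 (chr4:156200819-156201068, minus strand, printed on the strand of the gene) are shown because both hold repeated matches to the interferon response core, in capitals, read on either strand. In Ifit1 these begin 104 and 85 bases before the start. In Isg15, a ubiquitin-like modifier that rose by 2.11 (SE 0.31, adjusted p = 4.87e-08), they overlap in 1 run of 22 bases that begins 78 bases before it.
Ifit1: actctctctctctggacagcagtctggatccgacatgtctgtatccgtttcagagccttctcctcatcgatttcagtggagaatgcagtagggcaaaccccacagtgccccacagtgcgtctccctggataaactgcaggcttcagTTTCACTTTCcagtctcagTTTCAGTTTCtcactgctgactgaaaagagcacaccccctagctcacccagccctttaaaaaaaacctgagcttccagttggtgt
Isg15: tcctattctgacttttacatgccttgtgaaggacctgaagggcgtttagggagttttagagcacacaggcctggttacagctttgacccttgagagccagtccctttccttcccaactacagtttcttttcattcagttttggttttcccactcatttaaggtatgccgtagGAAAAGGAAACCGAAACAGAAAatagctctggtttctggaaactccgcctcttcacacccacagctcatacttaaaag

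Of 8 tested transcription factors and kinases of interferon signalling, 1 rose (12.5%, near the 18.6% of all tested genes) and 0 fell in edgeR, where 1 rose and 1 fell at an unadjusted p under 0.05. DESeq2 and the fit with library sizes from all symbols each called 1 higher and 1 lower. Jak2, a receptor-associated kinase, was the one that rose (2.60, SE 0.36, adjusted p = 2.04e-08), from a median of 24.2 to 162 CPM. Irf7 was at -0.86 (SE 0.33, adjusted p = 0.0517), Irf8 at -0.60 (adjusted p = 0.203) and Stat3 at 0.36 (adjusted p = 0.333). Irf1, tested only under the looser filter, rose by 2.31 (SE 0.41, adjusted p = 2.51e-06) from 15 to 81 counts. It was chosen after its value was seen, and Irf7 passed the threshold in 19 of its 32 alternative fits.

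Several regulators of cell death and the cell cycle also rose. All 3 tested members of the p53 and growth arrest list were higher, against 18.6% of all tested genes. They were Cdkn1a, a cyclin-dependent kinase inhibitor (2.37, SE 0.17, adjusted p = 4.44e-18), Mdm2, the ubiquitin ligase of p53 (1.52, SE 0.24, adjusted p = 4.03e-07), and Btg1 (1.05, SE 0.16, adjusted p = 3.00e-07). Cdkn1a stood at 70.4, 148 and 302 CPM at T0 and at 637, 807 and 1326 at T1, with no overlap. Mdm2 and Btg1 were back near their T0 medians at T4 (216, 644 and 218 CPM at T0, T1 and T4 for Mdm2, and 322, 769 and 309 for Btg1). Among genes chosen after their values were seen, the anti-apoptotic Cflar rose by 1.96 (SE 0.13, adjusted p = 5.19e-20) and Mcl1 by 1.2 (SE 0.16, adjusted p = 1.49e-08), and the pro-apoptotic Bcl2l11 by 2.27 (SE 0.22, adjusted p = 1.90e-13). The Bcl2a1 genes Bcl2a1a, Bcl2a1b and Bcl2a1d rose by 2.41, 2.57 and 2.46, but they are near-identical copies between which reads can be split. The histone demethylase gene Kdm6b rose by 4.43 (SE 0.31, adjusted p = 9.90e-19), from a median of 28.1 CPM at T0 to 733 at T1 and 112 at T4, and Errfi1, an inhibitor of the EGF receptor, by 4.92 (SE 0.35, adjusted p = 2.50e-18).

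Stress genes were on 3 lists. Of 8 tested heat shock and endoplasmic reticulum genes, 2 rose (25%, near the 18.6% of all tested genes). Dnaja1 (1.31, SE 0.25, adjusted p = 2.51e-05) and the chaperone Hspa5 (0.72, SE 0.16, adjusted p = 0.000370) were the 2 that rose. Atf4 had 48 counts at T0 and 57 at T1 (0.20 under the looser filter, adjusted p = 0.912), and Atf3 had 66 and 118 (0.79, adjusted p = 0.0994). Of the 3 tested genes on the ATF4 list, 2 rose (66.7%, against 18.6% of all tested genes). These were Ppp1r15a and the factor Cebpb (1.6, SE 0.26, adjusted p = 4.96e-07), while the asparaginyl-tRNA synthetase Nars was at -0.44 (adjusted p = 0.193). Ppp1r15a is also on the feedback list, and Cebpb is known to be induced by LPS. The part of ATF4 in either rise was not tested. Of 8 tested genes of the Nrf2 and iron list, 2 rose (25%, near the 18.6% of all tested genes). The ferritin chains, 2 genes, fell (25%, against 5.23%). The thioredoxin reductase Txnrd1 rose by 1.84 (SE 0.28, adjusted p = 2.57e-07) and the autophagy receptor Sqstm1 by 0.78 (SE 0.21, adjusted p = 0.00222).

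**Figure D3:**
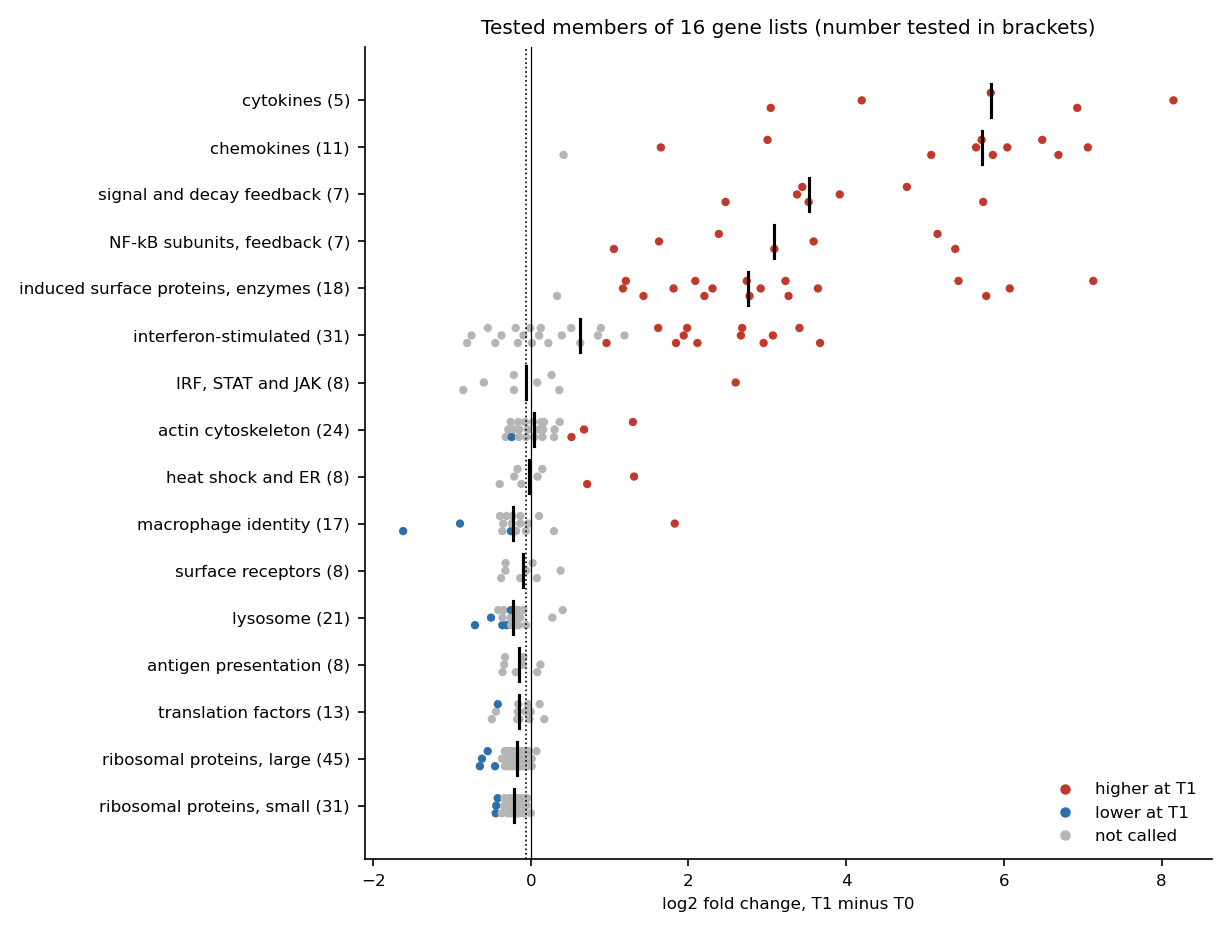
Log2 fold change (T1 minus T0) of each tested member of 16 gene lists, with the number tested in brackets; points are genes, black bars are list medians and the dotted line is the median of all 708 genes (-0.06). The first 5 lists lie almost wholly to the right, with medians from 2.76 to 5.83 (2.52 to 5.83 with the genes of at most 3 counts at T0 at their bounds), and the last 7 have medians between -0.23 and -0.10.

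Among the 37 genes that fell, Rgs2 had the lowest fold change. Rgs2, a GTPase-activating protein that damps G protein signalling, had 300.5, 462 and 630 CPM at T0, 62.5, 149 and 217 at T1 and 0, 27.3 and 112 at T4 (-1.70, SE 0.23, adjusted p = 7.41e-09). Maf, a basic leucine zipper transcription factor, had 391, 618 and 906 CPM at T0 and 162, 325 and 658 at T1 (-0.90, SE 0.17, adjusted p = 1.37e-05), and was at 531, 766 and 1092 at T4. The groups did not overlap for Rgs2. They overlapped for Maf, although 11 of 12 T1 libraries lay below the T0 mean. The nuclear RNA Neat1, the scaffold of paraspeckles, fell by 1.2 on the log2 scale (SE 0.25, adjusted p = 0.000161). Apobec1, an RNA-editing cytidine deaminase, fell by 1.35 (SE 0.22, adjusted p = 6.06e-07), from 275, 470 and 753 CPM to 94.0, 205 and 284, with a small overlap. Fam46a fell by 1.26 (SE 0.29, adjusted p = 0.000470). Rgs2, Apobec1 and Fam46a lie below the level that the naming rule asks for and were chosen after their values were seen. Under the looser filter Txnip, which binds thioredoxin and restrains glucose uptake, had 202 counts at T0, 18 at T1 and 52 at T4 (-3.42, SE 0.35, adjusted p = 5.77e-16), and the homeobox gene Hhex had 63, 11 and 58 (-2.42, SE 0.55, adjusted p = 0.000520); both were chosen in the same way.

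The count of lower genes was not stable. Only 7 of 37, among them Apobec1, Fam46a, Maf, Neat1 and Rgs2, kept the call in every alternative fit and with each library left out in turn, although all 37 kept their sign. Leaving out single T0 libraries raised the count from 37 to 56 (replicate 3), 60 (replicate 8), 72 (replicate 10), 63 (replicate 11) or 59 (replicate 12). Leaving out single T1 libraries raised it to 56 (replicate 1), 60 (replicate 2), 58 (replicate 4), 61 (replicate 9) or 56 (replicate 12).

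**Figure D4:**
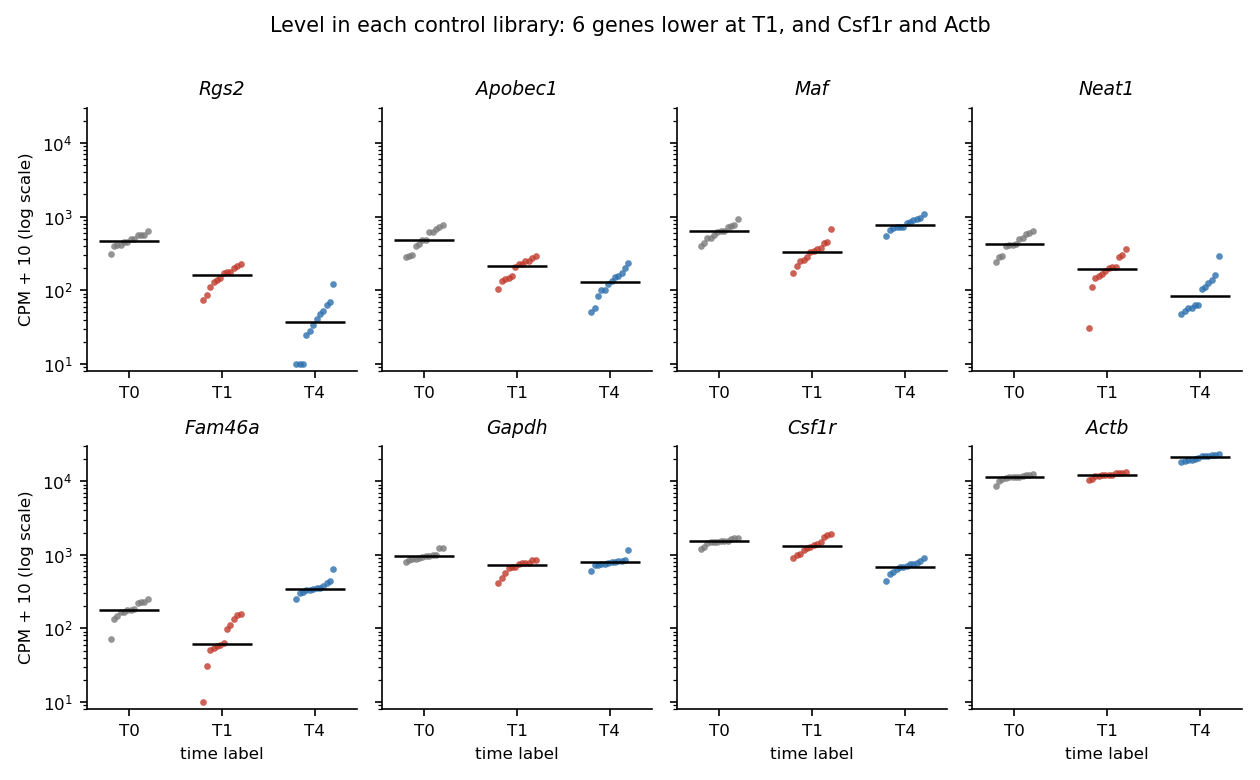
Level of 8 genes in each control library, as CPM + 10 on a log scale, with points for libraries and bars for medians of 12. Rgs2, Apobec1, Maf, Neat1, Fam46a and Gapdh have lower medians at T1 than at T0, and Csf1r and Actb have T1 libraries that overlap those of T0.

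Of 17 tested macrophage identity genes (of 30 listed), 1 rose, Cd14 (5.88%, against 18.6% of all tested genes), and 3 fell, Maf and Ctss among them (17.6%, against 5.23%). Csf1r, the receptor for the growth factor that macrophages depend on, had 1196, 1507 and 1702 CPM at T0 and 897, 1306 and 1888 at T1 (-0.13, SE 0.11, adjusted p = 0.444). Apoe (-0.19, adjusted p = 0.382), Lpl (-0.24, adjusted p = 0.142) and the complement gene C1qc (-0.31, adjusted p = 0.112) did not pass the test either. None of the 8 tested surface receptors, 5 lipid genes, 8 antigen presentation genes, 5 complement and Fc receptor genes and 4 respiratory chain genes passed in either direction with edgeR or with DESeq2. At an unadjusted p under 0.05, 4 of these genes were lower and 0 higher in edgeR. Ccr2, the receptor of Ccl2, was at -0.38 (SE 0.25, adjusted p = 0.306) and B2m at -0.10 (adjusted p = 0.528).

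Of 21 tested lysosomal genes, 5 fell (23.8%, against 5.23% of all tested genes) and none rose, by edgeR and by DESeq2. Under median-of-ratios scaling 2 fell and 0 rose, and at an unadjusted p under 0.05 in edgeR 7 fell and 0 rose. They were Hexa (-0.71, SE 0.19, adjusted p = 0.00326), Lamp1 (-0.50, SE 0.15, adjusted p = 0.00639), Ctsl (-0.36), Psap (-0.30) and Ctss (-0.25, SE 0.09, adjusted p = 0.0350). The median of the lysosomal list was -0.23. Of 76 tested ribosomal protein genes, 7 fell (9.21%, against 5.23% of all tested genes) and none rose, with medians of -0.17 for the large and -0.21 for the small subunit; 72 of the 76 (94.7%) had a value below 0, against 388 of all 708 (54.8%). DESeq2 made the same counts of 7 and 0 for these genes, and at an unadjusted p under 0.05 in edgeR 16 fell and 0 rose. Rpl29 was the clearest, at 384, 459 and 580 CPM at T0 and 159, 264 and 501 at T1 (-0.62, SE 0.19, adjusted p = 0.00979). The ferritin chains fell slightly: Ftl1, the light chain, by 0.43 (SE 0.09, adjusted p = 8.56e-05) and Fth1, the heavy chain, by 0.20 (SE 0.08, adjusted p = 0.0472). Gapdh fell by 0.49 (SE 0.12, adjusted p = 0.000777) and was below the T0 mean in 12 of 12 T1 libraries. The lysosomal and ribosomal medians kept their sign under median-of-ratios scaling, DESeq2 and library sizes from all symbols. But under the looser filter 1 of 30 lysosomal genes and none of 80 ribosomal protein genes fell, against 0.709% of all genes tested there. The medians there were nearer that of all genes (-0.05), at -0.09 for lysosomal, -0.08 for large-subunit and -0.11 for small-subunit genes. The 132 genes that rose took 2.14% ± 0.253 (SD, n = 12) of the counts of tested genes at T0 and 9.61% ± 1.22 at T1. Those counts include Rn45s, which took 47.7% of all counts at T0 and 43.6% at T1. The share among the other tested genes is therefore larger. The part of this larger share at T1 in the small decreases was not tested. In bulk RNA fewer cells of a type and less RNA per cell cannot be told apart.

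Of 24 tested members of the actin list, 3 rose and 1 fell (12.5% and 4.17%, near the 18.6% and 5.23% of all tested genes), and under median-of-ratios scaling or DESeq2 4 rose and 0 fell. Marcks, an actin-binding kinase substrate (1.29, SE 0.10, adjusted p = 1.17e-16), Actg1 (0.52, SE 0.10, adjusted p = 4.34e-05) and Tagln2 (0.68, adjusted p = 0.0427) rose and Tmsb4x, a monomer-binding peptide, fell by 0.24 (SE 0.09, adjusted p = 0.0432). Marcks went from 565, 788 and 939 CPM to 1622, 1940 and 2351 without overlap. Actb did not pass the test, at 8491, 11470 and 12390 CPM at T0 and 10270, 12150 and 13160 at T1 (0.10, SE 0.07, adjusted p = 0.314). Tagln2 lost its call in 21 of 32 alternative fits and Tmsb4x in 6 of 33.

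A total of 127 genes called under the looser filter were too low for the main filter: 103 were higher and 24 lower. Those that met the rule for genes with at most 3 counts at T0 and at least 36 at T1 were Ccrl2, a chemokine-binding receptor (1 and 97 counts, ratio 90.0, 15.8 to 3590), Egr2, Flrt3 (0 and 52, at least 16.1-fold higher), the heat shock gene Hspa1b (3 and 57, ratio 17.6, 5.74 to 88.1), AI504432, Il12b, the urokinase receptor Plaur (3 and 48, ratio 14.9, 4.79 to 74.5) and the phospholipid scramblase Plscr1 (3 and 45, ratio 13.9, 4.47 to 70.0). Ccrl2, Hspa1b and Plscr1 were seen in 12 of 12 T1 libraries.

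Transcript sequence was described beside the comparison, which did not use it. The pentamer ATTTA, the core of AU-rich decay elements, was counted in the 3′ UTR of the coding transcript with the longest reading frame in GENCODE M21. At least 1 copy was present in 102 of 131 genes that rose (77.9%), in 17 of 34 that fell (50.0%) and in 439 of all 684 tested genes with a 3′ UTR (64.2%). At least 3 copies were present in 48.1%, 20.6% and 36%. Longer UTRs hold more copies by length alone, and the median length was 1033, 397 and 880 bases; per kilobase there were 2.79, 1.28 and 2.07 copies. These shares are descriptions of the 3 sets, with no test.

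The densest 30-base window of the 3′ UTR is shown for risen genes in which it holds 4 or more copies, in capitals, and for Il1b, which has 3. Il1b is an exception to that rule. Other risen genes, for example Baz1a and Mdm2, also have a window with 3 copies and are not shown. The windows of Tnf and Cxcl2 hold 5 copies each, and the whole UTRs hold 8 and 11.
Tnf: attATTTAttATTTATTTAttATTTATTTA
Cxcl2: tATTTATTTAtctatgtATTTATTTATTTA
Cxcl1: gagggtcctATTTATTTAtgtATTTATTTA
Il12b: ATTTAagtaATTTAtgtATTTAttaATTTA
Pim1: gaagttttaatgtATTTATTTATTTATTTA
Ppp1r15a: gtagtttcctattATTTATTTATTTATTTA
Ptgs2: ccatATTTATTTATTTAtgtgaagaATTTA
Il1b: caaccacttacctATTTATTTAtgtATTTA
The set joins cytokines and chemokines with the kinase Pim1 and with Ppp1r15a and Ptgs2. Zfp36, whose product binds such elements, rose in the same libraries.

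Promoters were searched in the 250 bases before the first listed RefSeq start of GRCm38.p6, on both strands, for 107 of 132 genes that rose (matched by symbol) and 580 of 708 tested. A kappa-B match was present in 24 of the 107 (22.4%), in 73 of the 580 (12.6%) and in 7.01% of all 27025 promoters. The interferon response core was present in 15%, 8.28% and 3.04%, TGANTCA in 15%, 7.41% and 6.87%, and TATAAA, read on the gene's strand only, in 15.9%, 9.31% and 8.12%. The interferon response core was found in 7 of the 10 risen interferon-stimulated genes with a promoter (70.0%). For genes that fell, 28 of 37 were matched, under 80%, so the check is void for them, and likewise for the 10 of 15 matched cytokines and chemokines. A match is a description of letters, not a measured binding site.

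**Figure D5:**
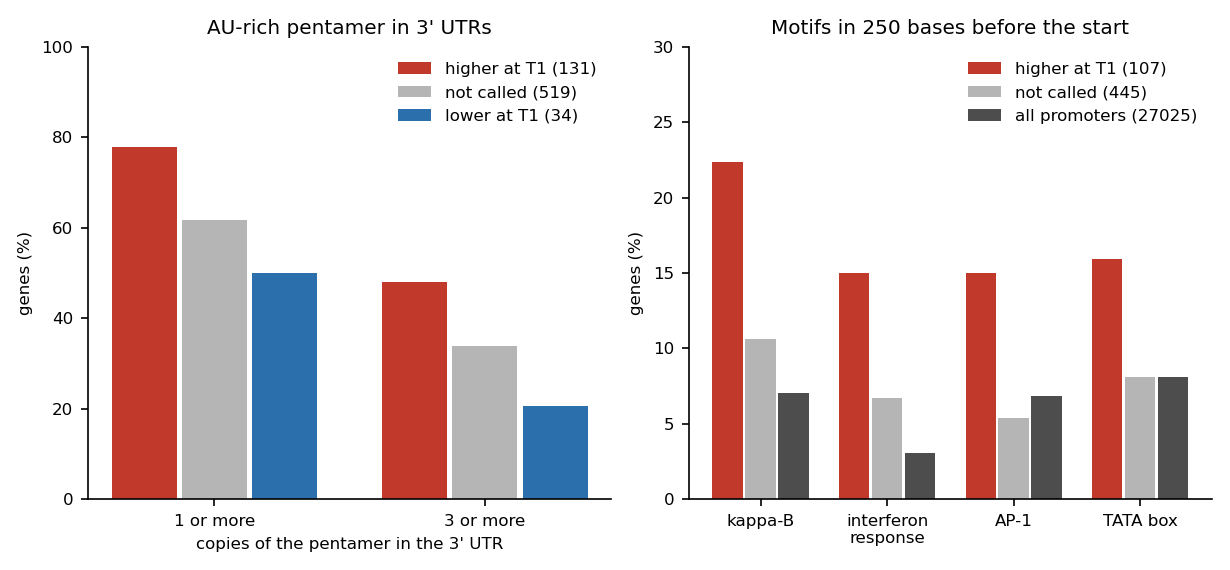
Left, percent of genes with 1 or more and 3 or more copies of the AU-rich pentamer in the 3′ UTR, for genes higher at T1, not called and lower at T1; right, percent of genes with a match to 4 motifs in the 250 bases before the start, for genes higher at T1, not called and all promoters, with numbers of genes in brackets. Bars of genes higher at T1 are the tallest in each class, for example 22.4% against 10.6% and 7.01% for kappa-B.

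Some of the genes that rose are neighbours in the genome. Within 500 kb of each other, 38 of the 132 (28.8%) formed 14 clusters on GRCm38, and of all tested genes, which are more numerous and so lie closer together, 363 of 704 (51.6%) were in clusters by the same rule. The largest was chr1:173723427-174031810, where AI607873, Ifi204, Mndal, Mnda, Ifi203 and Ifi205 of the interferon-inducible Ifi200 family and its neighbours rose by 0.91 to 1.94. The ends of each interval are set by genes that rose, and the 2 other tested genes within 500 kb of this one, Pydc3 (-1.30, adjusted p = 0.159) and Pyhin1 (-0.33, adjusted p = 0.588) of the same family, did not pass the test. Members of this family are similar copies between which reads can be split. On chr11:83065112-83664683, Slfn2, Ccl5, Ccl9, Ccl3 and Ccl4 rose by 1.43 to 6.04, while none of the 4 other tested genes within 500 kb, Slfn5, Slfn8, Synrg and Wfdc17, passed the test (-0.28 to 0.11). On chr11:82035571-82047525 Ccl2 and Ccl7 did. Il1a and Il1b lie together at chr2:129299610-129371139. On chr3:142493978-142638008, Gbp5, Gbp3 and Gbp2 rose and Gbp7 (0.89, adjusted p = 0.298) did not pass the test. Irg1 and Kctd12 (2.05, SE 0.17, adjusted p = 1.64e-15) share chr14:102976581-103056573. Tandem gene families are also neighbours by origin, and no test of clustering was made.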

How the data were processed

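RNA was measured in 36 control libraries of mouse bone-marrow-derived macrophages by 3′ digital gene expression (modified SCRB-Seq with a Nextera step, per the labels' protocols). The deposited table holds raw counts for 23481 gene symbols, which the authors made from reads; BWA and mm10 are named in the submitters' processing notes. Versions, the counting program, and whether strand and molecular identifiers were used were not given in the sources used here. Totals in the T0 and T1 libraries ran from 35545 to 100337 counts, so genes with few counts have wide errors.

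Counts of the 12 T0, 12 T1 and 12 T4 controls were fitted together in R 4.3.3 with edgeR 4.0.16 (quasi-likelihood F test, TMM scaling, filterByExpr with a minimum count of 10, library sizes from the genes kept), and T1 minus T0 was tested two-sided, adjusted by Benjamini-Hochberg over 708 genes. Library measures were compared by a two-sided permutation test with 100000 resamples. The steps were tested on simulated data. Of 66 pairs of replicates per time, none were identical or within sampling noise. Same-numbered T0 and T1 libraries deviated together (r over 0.1) in 2 of 12 pairs, so the numbers were not used as pairs.

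The text names the 15 largest increases and decreases at or above the median level, leaving out predicted genes, up to 4 members of each of 33 gene lists by adjusted p, 18 genes always given, such as Tnf and Il6, and untested genes with at most 3 counts at T0 and at least 36 at T1. Some of these are counted but not described, and some are not reported here. Genes outside the rule were chosen after their values were seen. The comparison and lists were chosen with earlier results of these data known. Positions and 3′ UTRs are from GENCODE M21 (704 of 708 symbols matched) and promoters from RefSeq. The alternatives tried were DESeq2 1.42.0, a filter of 24 counts in total over T0 and T1, none at all, scaling by the median of ratios, the replicate number as a block, T0 and T1 only, no structural RNAs, no library under 30000 counts (there was none), each library left out, and, chosen after seeing the data, library sizes from all symbols.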

Additional observations from a re-analysis of the deposited data

How the results depend on the processing

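Against 132 genes higher at T1, the count was 263 with no filter, 236 with the total-count filter, and 74 with the T0 and T1 libraries alone, where 461 genes passed the filter. Median-of-ratios scaling gave 134, DESeq2 136, library sizes from all symbols 129, and leaving out single libraries 128 to 135. Of the 132 genes, 125 kept the call in every fit that tested them, and Gbp2, Itga4, Pik3r5, Rap1b, Rbm25, Syk and Tagln2 did not. Against 37 genes lower, library sizes from all symbols gave 56, median-of-ratios scaling 27, no filter 55, and leaving out single libraries 35 to 72. The replicate block gave 136 higher and 43 lower; 3 of 12 T0 libraries correlated best with the T1 library of their own number. Over 3569 refitted values of named genes, 3389 kept their side of the threshold, 83 lost the call, 97 gained it and none reversed. Leaving out 1 library moved the difference in total counts between -1932 and 3959. At this depth 22773 symbols could not be tested, so the absence of a call for a low gene says little.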
